A study of Saccharomyces cerevisiae with 10 samples.

Results

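The genes described here are the peroxins (PEX genes), which build peroxisomes, together with INP1 and INP2, which share peroxisomes between mother and bud, and the peroxisomal carrier ANT1. They were taken by name, 30 genes in all. Each of the 30 had 1 probe set on the array, and all 30 passed the filter on dim signal, out of 5365 genes tested. Peroxisomes are small organelles in which yeast carries out all of its fatty acid beta-oxidation. Their matrix enzymes are made in the cytosol and bound by import receptors, which dock at the membrane, release their cargo inside and are then pulled back out with the help of ubiquitin. Yeast makes more and larger peroxisomes when it grows on fatty acids such as oleate, and few of them in glucose.

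Commercial baker's yeast (Saccharomyces cerevisiae) had been grown in fed-batch culture, and the labels used here name no strain. Poly(A) RNA was measured. Fresh compressed yeast (0 h) and yeast dried on aluminium trays by blown air at 37 degrees for 1, 2, 4 or 8 h gave 2 Affymetrix arrays per time, 10 arrays in 5 groups. The replicates were independent experiments per the series' design text. No group was kept warm or stored without drying, so heat, time in the oven and water loss cannot be told apart in any comparison with 0 h.

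Levels are given as multiples of the array median, the median signal intensity of all probe sets on that array other than controls. Probe sets differ in affinity, so a level can be compared between arrays for 1 gene but not between genes. Changes are log2 differences of mean levels (dried minus 0 h) with the standard error (SE) of a limma fit over all 10 arrays. Adjusted p values are limma's after Benjamini-Hochberg adjustment over all genes tested, and a gene was called at an adjusted p under 0.05. Array medians ranged from 23.6 to 115.4, and actin signal at the 3' end over that at the 5' end, a sign of RNA integrity, from 2.62 to 6.64. Replicate 1 of 2 h and replicate 1 of 8 h had both the lowest medians (28.7 and 23.6) and the highest actin ratios (6.64 and 6.44). Results are therefore also given without these 2 arrays. Replicate 1 of 0 h came next in both, with a median of 42.3 and an actin ratio of 5.38. It stayed in that setting and is 1 of the 2 arrays behind every change against 0 h. The signal is that of bulk RNA, so more cells with a transcript and more transcript per cell cannot be told apart.

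PEX9 was higher than at 0 h at every time of drying, and of the other 29 genes only PEX18 was called, at 1 h. PEX9 (YMR018W) encodes an import receptor for a subset of matrix enzymes with the C-terminal targeting signal and is known as a gene induced on oleate. PEX18 encodes a co-receptor that works with PEX7. At 1 h, 2 of 30 genes were called higher and 0 lower, against 2.61% of all genes called, 2.22% higher and 0.391% lower. At 2 h, 1 of 30 was called higher and 0 lower, against 1.51% of all genes called, 0.82% higher and 0.69% lower. At 4 h, 1 of 30 was called higher and 0 lower, against 1.45%, 1.08% higher and 0.373% lower. At 8 h, 1 of 30 was called higher and 0 lower, against 0.951%, 0.503% higher and 0.447% lower. The gene called at these 3 times was PEX9. It was also the 1 gene of 30 called over all dried times together, against 2.11% of all genes called, 1.36% higher and 0.746% lower.

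The level of PEX9 was 0.475 and 0.732 times the array median at 0 h, 2.05 and 1.62 at 1 h, 3.07 and 2.46 at 2 h, 2.44 and 2.96 at 4 h, and 2.06 and 1.58 at 8 h. All 8 dried arrays lay above both 0 h arrays, with the highest values at 2 and 4 h. The change was 1.63 ± 0.29 at 1 h (SE, n = 2 arrays per time, limma adjusted p = 0.0078), which is 3.09-fold. It was 2.22 ± 0.29 at 2 h (limma adjusted p = 0.0013), 2.19 ± 0.29 at 4 h (limma adjusted p = 0.0015) and 1.61 ± 0.29 at 8 h (limma adjusted p = 0.015). Against 0 h, the mean of the 4 dried times was 3.76-fold higher, at 1.91 ± 0.23 (limma adjusted p = 0.00033). A limma F test over the 4 times called PEX9 (adjusted p = 0.0031) and no other member, against 3.28% of all genes called.

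The PEX9 values on the dim arrays of 2 h and 8 h, 3.07 and 2.06, were higher than on their partners. Leaving out both dim arrays left 1 array at 2 h and 1 at 8 h, and the PEX9 change was then 2.06 at 2 h and 1.42 at 8 h. In log2 units, the 0 h arrays differed more from each other than the arrays of any later time did in this gene. Replicate 1 of 0 h held the lower value (0.475) and came next after the dim arrays in median and actin ratio. Without replicate 1 of 0 h, the calls at 1 h and 8 h were lost, at 1.32 ± 0.34 (limma adjusted p = 0.12) and 1.30 ± 0.34 (limma adjusted p = 0.26), while those at 2 and 4 h held. The 1 h call was also lost without replicate 1 of 1 h (1.46 ± 0.38, limma adjusted p = 0.16), and the 8 h call without replicate 1 of 8 h alone (1.42 ± 0.34, limma adjusted p = 0.10). Both the 1 h and the 8 h call were lost without the intensity trend of the fit. The 8 h call was also lost without the dim filter or when the fit held just the 0 h and 8 h arrays. Without scaling between arrays or with a floor of 0.3, PEX9 was not called at 1, 2, 4 or 8 h. Under that floor its limma adjusted p values were 0.059 to 0.17. Of all genes, 0.0187%, 0%, 0% and 0% were called at these times without scaling. With that floor the shares were 0.919%, 0.177%, 0.23% and 0%, so other genes were still called at 1, 2 and 4 h. Why PEX9 lost its calls in these settings was not tested.

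**Figure D1:**
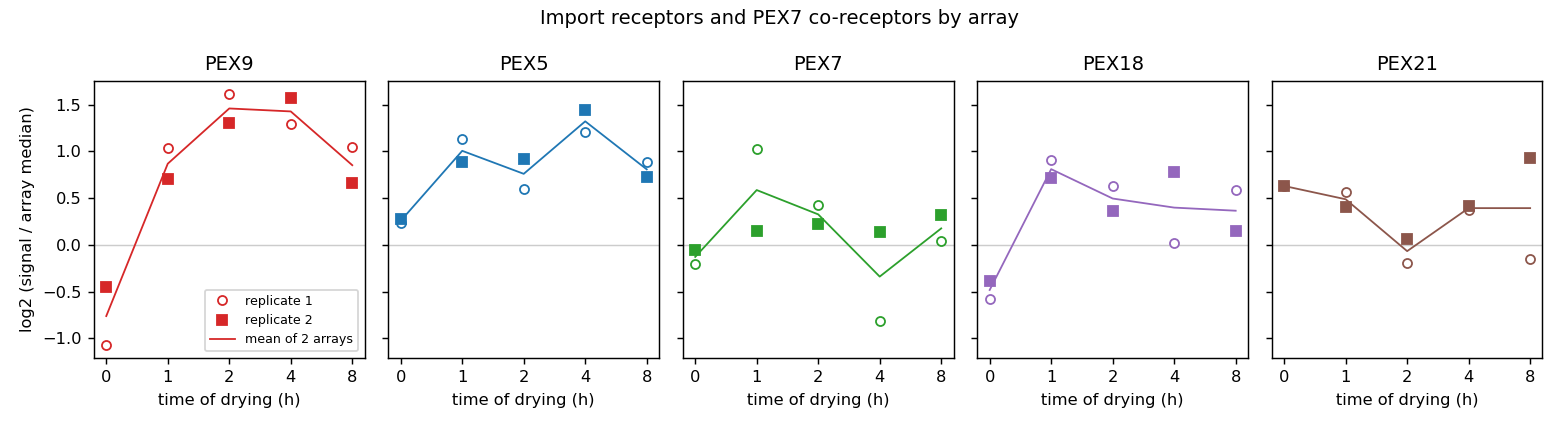
Levels of the import receptor genes PEX9, PEX5 and PEX7 and of the co-receptor genes PEX18 and PEX21, as log2 of the signal over the array median (vertical axis) at 0, 1, 2, 4 and 8 h of drying (horizontal axis, evenly spaced). Open circles are replicate 1, filled squares replicate 2 and lines the mean of 2 arrays. For PEX9, PEX5 and PEX18 all 8 dried arrays lie above both 0 h arrays.

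The other import receptors did not pass the test at any time. PEX5 (YDR244W) encodes the general receptor for the C-terminal signal, the one most matrix enzymes use. Its level was 1.18 and 1.21 at 0 h, 2.18 and 1.84 at 1 h, 1.51 and 1.89 at 2 h, 2.3 and 2.71 at 4 h, and 1.85 and 1.66 at 8 h. All 8 dried arrays were above the 0 h arrays, which lay close together. Its changes at 1, 2, 4 and 8 h were 0.75, 0.50, 1.06 and 0.55, each ± 0.25, and the 4 h change came closest to passing (limma adjusted p = 0.0575). At 4 h PEX5 was called without the dim arrays of 2 h and 8 h (1.06 ± 0.23, limma adjusted p = 0.013).

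PEX7 (YDR142C) encodes the receptor for the N-terminal signal, which only a few enzymes carry. Its level was 0.87 and 0.96 at 0 h, 2.03 and 1.11 at 1 h, 1.34 and 1.17 at 2 h, 0.567 and 1.1 at 4 h, and 1.03 and 1.24 at 8 h. The dried arrays overlapped the 0 h arrays, since replicate 1 of 4 h was the lowest of all 10 and replicate 1 of 1 h the highest. Its changes at 1, 2, 4 and 8 h were 0.71, 0.45, -0.21 and 0.30, each ± 0.37.

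Whether the receptors changed unequally was asked within arrays, as the difference between the log2 levels of 2 genes on the same array. Such a difference has no meaning of its own, because the probe sets differ, but its shift between dried and fresh arrays is a difference between the changes of 2 genes. For PEX9 minus PEX5, it was between -0.18 and 1.02 on the 8 dried arrays and -1.31 and -0.73 on the 0 h arrays. For PEX9 minus PEX7, it was between 0.01 and 2.11 on the dried arrays and -0.87 and -0.39 on the 0 h arrays. Neither of these overlapped, as was already so for PEX9 alone. How many other pairs of genes separate in this way was not counted. The mean shift of these receptor pairs was 1.20 and 1.60 log2 units. They were put to an exact two-sided permutation test that pooled the 4 times of drying. The times were not alike, since PEX9 minus PEX7 was 0.01 and 0.55 at 1 h and 2.11 and 1.43 at 4 h. Over 8 dried and 2 fresh arrays, that exact permutation test gave each pair p = 0.044, the smallest that 45 arrangements allow. Adjusted over the 3 receptor pairs, both had p = 0.067 in that exact test and did not pass. After adjustment a pair could pass only if all 3 pairs reached the smallest p, however large its own shift. The adjusted test therefore cannot decide whether PEX9 changed more than PEX5 or PEX7.

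For PEX7 minus PEX5 the dried arrays (-2.02 to -0.10) overlapped the 0 h arrays (-0.44 and -0.33), with a mean shift of -0.40 (exact permutation test, p = 0.40, adjusted p = 0.40). The 4 h arrays stood lowest in this pair, at -2.02 and -1.30. At that time PEX5 was at its highest and PEX7 at its lowest mean level.

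**Figure D2:**
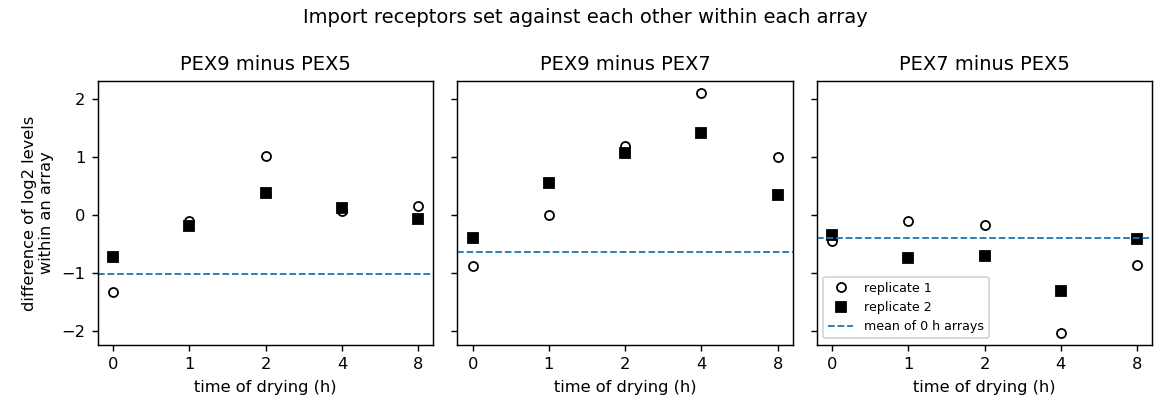
Difference of the log2 levels of 2 import receptor genes within each array (vertical axis) at each time of drying (horizontal axis, evenly spaced), with open circles for replicate 1, filled squares for replicate 2 and a dashed line at the mean of the 0 h arrays. PEX9 minus PEX5 and PEX9 minus PEX7 lie above the 0 h arrays on all 8 dried arrays, and PEX7 minus PEX5 overlaps them.

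PEX18 and PEX21 encode the co-receptors of PEX7. PEX18 was at 0.671 and 0.762 at 0 h, 1.87 and 1.64 at 1 h, 1.55 and 1.28 at 2 h, 1.01 and 1.72 at 4 h, and 1.5 and 1.1 at 8 h. It was above both 0 h arrays on all 8 dried arrays, and its 1 h change of 1.29 ± 0.32 (2.45-fold, limma adjusted p = 0.045) passed. Its later changes, 0.98 ± 0.32, 0.88 ± 0.32 and 0.85 ± 0.32, did not. The 1 h call was lost without any 1 array of 0 h or of 1 h (limma adjusted p from 0.20 to 0.41). It was also lost with 75th percentile scaling (limma adjusted p = 0.11) and with the replicate number as a block (limma adjusted p = 0.054), and after quantile normalization, without scaling, with a floor of 0.3, without the dim filter or without the intensity trend. PEX21 was at 1.55 and 1.54 at 0 h, 1.48 and 1.33 at 1 h, 0.875 and 1.04 at 2 h, 1.29 and 1.33 at 4 h, and 0.903 and 1.91 at 8 h. Its dried arrays lay at or below 1.48 except for replicate 2 of 8 h, and its largest change, -0.70 ± 0.33 at 2 h, did not pass. The difference between the changes of PEX18 and PEX21 was not tested.

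The machinery that handles the loaded receptor at the membrane showed 0 calls at any time. PEX13, PEX14 and PEX17 form the docking complex. PEX14 had the largest mean change of these 3, with levels of 2.75 and 3.08 at 0 h, 5.25 and 4.15 at 1 h, 3.52 and 4.72 at 2 h, 4.55 and 3.82 at 4 h, and 2.01 and 3.35 at 8 h. It was above both 0 h arrays on every array of 1, 2 and 4 h, and its 1 h change was 0.68 ± 0.28. PEX13 was at 1.66 and 1.61 at 0 h, 1.92 and 2 at 1 h, 1.51 and 1.34 at 2 h, 1.95 and 1.39 at 4 h, and 1.38 and 1.73 at 8 h. The dried arrays lay on both sides of the 0 h arrays, with changes from -0.20 ± 0.27 at 2 h to 0.26 ± 0.27 at 1 h. PEX17 changed by 0.25 ± 0.30 at 1, 2 and 4 h and by -0.30 ± 0.30 at 8 h.

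PEX2 and PEX10 are RING-finger ubiquitin ligases that mark the receptor for return, and PEX8 links them to the docking complex from the inside. PEX10 was at 1.86 and 1.91 at 0 h, 2.26 and 2.31 at 1 h, 1.93 and 2.4 at 2 h, 2.42 and 2.46 at 4 h, and 2.13 and 2.77 at 8 h. All 8 dried arrays were above the 0 h arrays, by little at 2 h replicate 1, and the mean change of 0.30 ± 0.19 did not pass. PEX2 was at 41.3 and 32.7 at 0 h, 40.3 and 34 at 1 h, 41.4 and 34.5 at 2 h, 33.3 and 26.7 at 4 h, and 33.6 and 25.2 at 8 h. Its dried arrays overlapped the 0 h arrays, with changes from -0.33 ± 0.29 to 0.04 ± 0.29. PEX8 changed by at most 0.26 in either direction.

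Receptor recycling needs the ubiquitin-conjugating enzyme PEX4, its membrane anchor PEX22, the AAA ATPase PEX6, which pulls the receptor out, and PEX15, the anchor of PEX6. PEX6 was at 1.26 and 0.849 at 0 h, 1.66 and 1.46 at 1 h, 1.39 and 1.6 at 2 h, 1.4 and 1.86 at 4 h, and 1.96 and 1.51 at 8 h. Every dried array was above both 0 h arrays, with a mean change of 0.63 ± 0.23 (limma adjusted p = 0.25). PEX15 was at 5.04 and 4.17 at 0 h, 4.66 and 4.31 at 1 h, 3.66 and 3.33 at 2 h, 4.09 and 3.62 at 4 h, and 3.25 and 5.62 at 8 h. Both 2 h arrays and both 4 h arrays were below the 0 h arrays and the 8 h arrays lay on either side of them, with a mean change of -0.19 ± 0.21. PEX22 changed by 0.78 ± 0.32 at 1 h (limma adjusted p = 0.28). PEX4 was dim, and its 0 h arrays alone, at 0.714 and 0.301, spanned most of the range of the other 8.

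PEX3 and PEX19 place peroxisomal membrane proteins, PEX19 as their carrier and PEX3 as the docking site of PEX19. PEX3 was at 4.05 and 3 at 0 h, 6.72 and 5.8 at 1 h, 6.75 and 3.8 at 2 h, 5.73 and 5.26 at 4 h, and 4.22 and 5.73 at 8 h. Only replicate 2 of 2 h fell within the 0 h range, and the 1 h change was 0.84 ± 0.29 (limma adjusted p = 0.18). PEX19 was at 1.37 and 1.5 at 0 h, 1.85 and 1.39 at 1 h, 1.88 and 1.13 at 2 h, 1.49 and 1.59 at 4 h, and 1.35 and 1.2 at 8 h. The dried arrays lay on both sides of the 0 h arrays, with a mean change of 0.03 ± 0.24.

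Among the genes of peroxisome proliferation and division, PEX11 elongates the membrane before division. It was at 16.6 and 13.8 at 0 h, 29.9 and 28.9 at 1 h, 37.8 and 24.3 at 2 h, 28.3 and 27.2 at 4 h, and 20.6 and 26.3 at 8 h, above both 0 h arrays throughout. Its mean change of 0.86 ± 0.22 (1.82-fold, limma adjusted p = 0.068) did not pass. It was called without the dim arrays of 2 h and 8 h (0.83 ± 0.18, limma adjusted p = 0.016). PEX25, a relative of PEX11, changed by 0.66 ± 0.31 at 1 h and 0.53 ± 0.25 over all dried times.

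PEX27, the remaining relative of PEX11, had the largest mean change of this group but was dim. It was at 0.1 and 0.215 at 0 h, 0.416 and 0.53 at 1 h, 0.38 and 0.395 at 2 h, 0.1 and 0.298 at 4 h, and 0.407 and 0.1 at 8 h, where 0.1 is the floor. Since an array of 0 h, of 4 h and of 8 h sat at that floor, its changes depend on where the floor is set. The 1 h change was 1.68 ± 0.84 (limma adjusted p = 0.41), and 0.65 ± 0.17 with the floor at 0.3 (limma adjusted p = 0.16). PEX35, which helps to control peroxisome number, changed by between -0.21 ± 0.37 and 0.49 ± 0.37.

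PEX34 also acts on peroxisome number. It was at 6.82 and 6 at 0 h, 11.9 and 10.8 at 1 h, 10.6 and 3.95 at 2 h, 3.92 and 5.03 at 4 h, and 4.36 and 3.77 at 8 h. Both 1 h arrays were above the 0 h arrays and all 4 arrays of 4 and 8 h were below them, while the 2 h arrays disagreed. Against 0 h the changes were 0.83 ± 0.35 at 1 h and -0.66 ± 0.35 at 8 h, and neither passed. At 8 h PEX34 was lower than at 1 h by -1.49 ± 0.35 (limma adjusted p = 0.032). This comparison was chosen after the values of PEX34 had been seen. The call was lost without replicate 1 or replicate 2 of 0 h, of 1 h or of 8 h (limma adjusted p from 0.054 to 0.26), and with 75th percentile scaling, quantile normalization, no scaling, a floor of 0.3, no dim filter or no intensity trend (limma adjusted p from 0.057 to 1.00).

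In the same comparison of 8 h with 1 h, PEX34 was the 1 call among 30 genes, against 3.45% of all genes called and 2.42% called lower. The change was below 0 for 24 of 30 genes, or 80%, against 54.9% of all genes, with medians of -0.29 and -0.06. For PEX9 it was -0.02 ± 0.29. PEX32, a dim gene, had a change of -1.55 ± 0.58 that did not pass (limma adjusted p = 0.16). Leaving out the dim arrays of 2 h and 8 h left 1 array at 8 h, where PEX32 was at 0.162, and the change was then -2.49. Without replicate 2 of 8 h instead, the PEX32 change was -0.62, so its size rests on which 8 h array is kept.

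PEX28, PEX29, PEX30, PEX31 and PEX32 are membrane proteins of the endoplasmic reticulum that act where it meets peroxisomes. PEX29 was at 2.21 and 2.01 at 0 h and between 2.57 and 3.6 on the dried arrays, without overlap, and its mean change was 0.53 ± 0.19 (limma adjusted p = 0.23). PEX32 had the largest mean change here, 0.68 ± 0.46, and was at 0.284 and 0.542 at 0 h, 0.685 and 1.2 at 1 h, 1 and 0.739 at 2 h, 0.798 and 0.517 at 4 h, and 0.589 and 0.162 at 8 h. It was above both 0 h arrays at 1 and 2 h, overlapped them at 4 h, and at 8 h its arrays differed most in log2 units. PEX31 was the 1 gene of these 5 with a mean change below 0, at -0.14 ± 0.32. It was at 0.849 and 0.724 at 0 h, 0.654 and 0.836 at 1 h, 0.564 and 1.04 at 2 h, 0.539 and 0.731 at 4 h, and 0.903 and 0.572 at 8 h, with the dried arrays on both sides of the 0 h arrays. PEX28 changed by 0.64 ± 0.36 at 1 h and -0.03 ± 0.36 at 2 h. PEX30 was lower on both 2 h arrays (0.303 and 0.256) than at 0 h (0.397 and 0.551), at -0.75 ± 0.47, and did not pass.

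INP1, which holds peroxisomes back in the mother cell, was at 0.884 and 0.883 at 0 h, 1.25 and 1.25 at 1 h, 0.679 and 1.18 at 2 h, 0.963 and 0.834 at 4 h, and 1.28 and 1.07 at 8 h. It was higher on both arrays of 1 h and of 8 h, by 0.50 ± 0.32 and 0.40 ± 0.32, and did not pass. INP2, which links peroxisomes to the myosin that carries them into the bud, was dim, at 0.366 and 0.154 at 0 h, 0.225 and 0.321 at 1 h, 0.209 and 0.275 at 2 h, 0.1 and 0.139 at 4 h, and 0.648 and 0.337 at 8 h, where 0.1 is the floor. Its changes ran from -1.01 ± 0.74 at 4 h to 0.98 ± 0.74 at 8 h, so no direction can be read.

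ANT1, the carrier that brings ATP into the peroxisome for fatty acid activation, was at 3.01 and 2.58 at 0 h, 4.5 and 5.3 at 1 h, 2.3 and 3.12 at 2 h, 4.2 and 3.39 at 4 h, and 3.53 and 3.74 at 8 h. Apart from replicate 1 of 2 h, every dried array was above both 0 h arrays. The 1 h change was 0.81 ± 0.25 (limma adjusted p = 0.13), and without the dim arrays of 2 h and 8 h ANT1 was among 6 members called at 1 h, with PEX9, PEX18, PEX3, PEX11 and PEX34. In that setting 6.48% of all genes were called at 1 h, against 2.61% with all arrays.

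**Figure D3:**
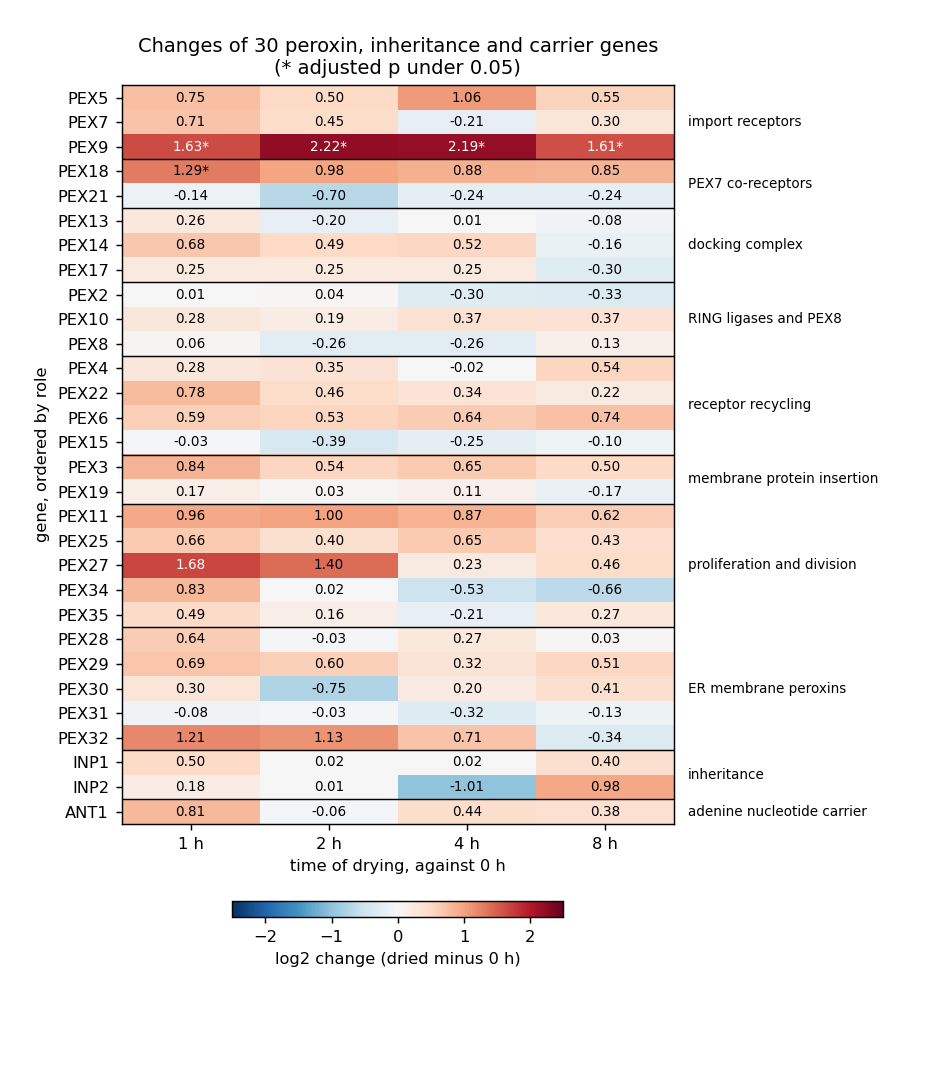
Log2 change against 0 h (colour and printed value) of all 30 genes, ordered by role (rows), at 1, 2, 4 and 8 h of drying (columns), where an asterisk marks a limma adjusted p under 0.05. The asterisks are at PEX9 in all 4 columns and at PEX18 at 1 h, and the 1 h column has 27 values above 0.

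Taken by counts, most of the 30 genes were above their 0 h level without passing. At 1 h, 27 of 30 changes (90%) were above 0, against 53.2% of all genes, with a median of 0.62 against 0.04 for all genes. The medians at 2, 4 and 8 h were 0.22, 0.24 and 0.34, against -0.05, 0.02 and 0.01 for all genes. The counts above 0 at these times were 22, 20 and 20 of 30, against 45.5%, 52.2% and 51.4% of all genes. Without scaling between arrays the median of all genes moved to -0.67 at 2 h, 5 of 30 members were above 0, and 24 of 30 were above the median of all genes, as many as with scaling. At 8 h it moved to -0.29, with 14 of 30 members above 0 and 19 above the median of all genes. With unadjusted limma p values under 0.05, 10, 4, 6 and 6 of 30 members passed at 1, 2, 4 and 8 h, against 13.9%, 13.1%, 10.7% and 9.26% of all genes. Over all dried times together there were 8 of 30, against 11.8% of all genes.

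All 8 dried arrays were above both 0 h arrays for 7 of 30 genes (23.3%), against 4.49% of all genes. These were PEX5, PEX9, PEX18, PEX10, PEX6, PEX11 and PEX29. All dried arrays were below both 0 h arrays for 0 of 30, against 3.88% of all genes. The genes of this list share arrays and the same pair of 0 h arrays, and their changes are not independent of each other.

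Other genes of the peroxisome give the setting of these values. In the list of beta-oxidation and fatty acid entry, 6, 5, 4 and 0 of 14 genes were called higher at 1, 2, 4 and 8 h. At no time were any of them called lower, a count of 0. Of all genes, 2.22%, 0.82%, 1.08% and 0.503% were called higher at these times, and 0.391%, 0.69%, 0.373% and 0.447% lower. The medians of the 14 genes were 1.15, 1.21, 0.96 and 0.43, against 0.04, -0.05, 0.02 and 0.01 for all genes. PXA2, which with PXA1 imports fatty acids, was at 1.13 and 1.16 at 0 h, 5.93 and 5.41 at 1 h, 6.03 and 4.42 at 2 h, 4.01 and 3.26 at 4 h, and 2.1 and 1.87 at 8 h. It was highest at 1 and 2 h and at 8 h still above both 0 h arrays, with a change of 0.79 ± 0.25 (limma adjusted p = 0.21). The other genes called at 1 h were PXA1, FAA2, which activates fatty acids inside the peroxisome, and the enzymes ECI1, FOX2 and POX1. PEX9 was called at 8 h, when 0 of these 14 genes and 0.503% of all genes were called higher. The difference was not tested.

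**Figure D4:**
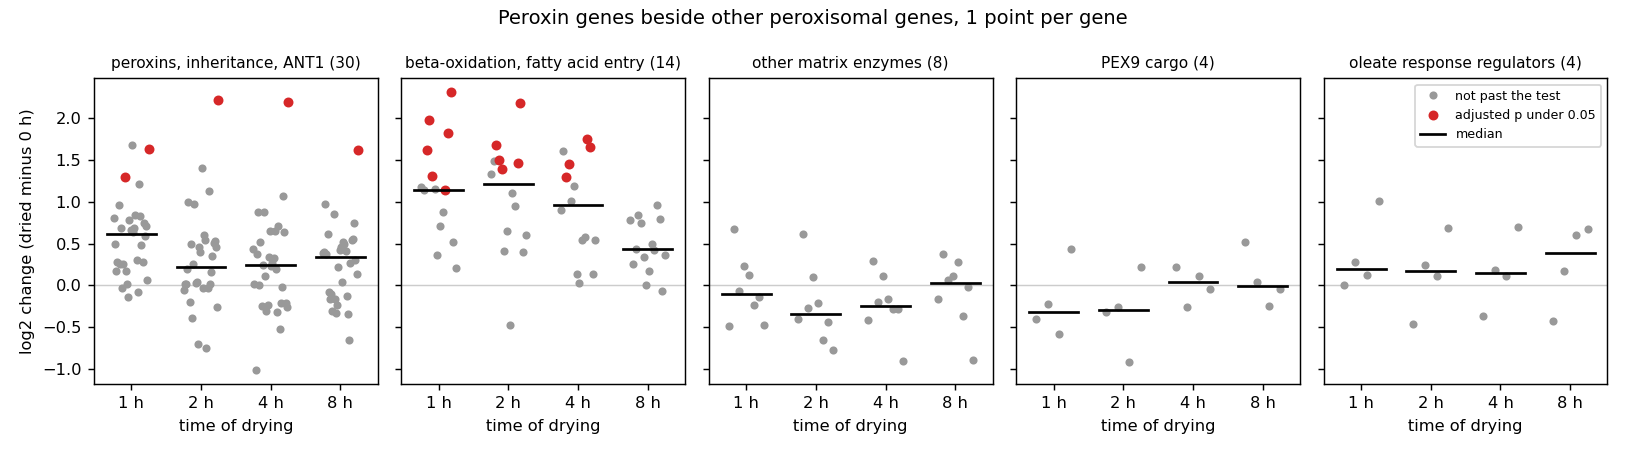
Log2 change against 0 h (vertical axis) at 1, 2, 4 and 8 h of drying (horizontal axis) for the 30 peroxin, inheritance and carrier genes and for 4 other lists, 1 point per gene, red where the limma adjusted p was under 0.05 and black bars at the median. Calls are seen in the 30 genes and in beta-oxidation and fatty acid entry, where the median is 1.15 at 1 h and 0.43 at 8 h, and in 0 genes of the other 3 lists.

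Of the enzymes known as cargo of PEX9, which are MLS1 and DAL7 (malate synthases), GTO1, a glutathione transferase, and FSH3, 0 of 4 were called at any time. At 1, 2, 4 and 8 h, MLS1 changed by 0.43, 0.21, -0.05 and -0.04 (each ± 0.38) and DAL7 by -0.40, -0.32, 0.22 and 0.52 (each ± 0.32). GTO1 changed by -0.58, -0.91, 0.12 and -0.24 (each ± 0.37), so its 2 h value was the furthest from 0 of the 4 genes (limma adjusted p = 0.29). FSH3 changed by -0.23, -0.26, -0.26 and 0.04 (each ± 0.31). Of the PEX7 cargo POT1, PNC1 and GPD1, also 0 of 3 were called. At 1, 2, 4 and 8 h, POT1, the thiolase of beta-oxidation, changed by 0.88, 1.10, 0.55 and 0.49 (each ± 0.34). PNC1, a nicotinamidase, changed by 0.34, 0.23, 0.26 and 0.36 (each ± 0.31), and GPD1, which makes glycerol, by 0.28, 0.76, 0.25 and 0.63 (each ± 0.28).

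Regulators and partners of the peroxisome showed 0 calls too. PIP2, which with OAF1 activates oleate-induced genes, changed by 1.01, 0.68, 0.70 and 0.67 at 1, 2, 4 and 8 h (each ± 0.29), with a limma adjusted p of 0.11 at 1 h. At the same times OAF1 changed by 0.28, 0.24, 0.18 and 0.17 (each ± 0.30) and OAF3 by 0.12, 0.11, 0.11 and 0.60 (each ± 0.41). ADR1, another activator of these genes, did not pass either, at 0.01, -0.46, -0.36 and -0.42 (each ± 0.25). Of the fission genes VPS1, DNM1, FIS1, MDV1 and CAF4, 0 of 5 were called, with changes over the 4 times from -0.44 (CAF4 at 1 h) to 0.46 (VPS1 at 1 h). MYO2, the myosin that INP2 binds, changed by 0.51, 0.47, 0.55 and 0.05 at these times (each ± 0.23). ATG36, the receptor for peroxisome degradation, changed by 0.52, 0.05, 0.24 and 0.12 (each ± 0.26), and its partner ATG11 by 0.77, 0.69, 0.63 and 0.77 (each ± 0.26). HRR25, the kinase that acts on ATG36, changed by 0.10, -0.11, -0.23 and -0.13 (each ± 0.32). Of 8 other matrix enzymes, 0 were called, the most changed over the dried times being STR3 (-0.76 ± 0.23), CAT2 (0.48 ± 0.24) and PXP1 (-0.38 ± 0.22).

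Genes that mark other kinds of yeast cell were looked at beside these results. Of 8 haploid and mating genes, 0 were called, and their summed level was 6.88 to 19.3 on dried arrays and 6.31 to 9.97 on fresh arrays. A sum weighs each probe set by its own brightness, and here MFA1 alone made up 13.4 of the 19.3 on replicate 1 of 2 h. Over all dried times together, 6 of 8 of these genes had a change above 0, against 49.6% of all genes. MF(ALPHA)1 lay the other way, between 0.143 and 0.559 on dried arrays, against 0.631 and 0.693 at 0 h, and did not pass. MFA2 was also lower at 1 h, at 1.34 and 1.22 against 2.28 and 1.92 at 0 h. At 2 h its arrays, at 2.65 and 1.84, lay on either side of the 0 h arrays. Of 7 genes of meiosis and sporulation, 6 passed the dim filter and 0 were called, with a summed level of 3.54 to 4.84 on dried arrays and 3.65 to 3.85 on fresh arrays. In each list 3 genes were at the floor on some array. The highest mating sum was on the dim replicate 1 of 2 h, and its part in the peroxin values of that array was not tested.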

How the data were processed

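The deposited values were linear signal intensities from Affymetrix Yeast Genome S98 arrays, 1 column per array. Per the submitters' processing notes GCOS, Affymetrix's software, was used; its version is not given in the sources used here. The ratio table that the labels describe was not used here. No detection calls were used, so dim values cannot be told from background, and the number of arrays limits the precision.

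Of 9335 probe sets, 60 controls were left out. Probe sets with 1 gene numbered 6504, with several genes 328 and with none 2443, in the platform annotation given. Symbols came from the R64 reference table through gene identifiers, and all 30 members matched. Each array was divided by its median, floored at 0.1 of it and converted to log2. The brightest probe set stood for a gene, and genes with a mean under 0.2 of the median were left out, which left 5365 of 5656 genes.

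Group means were fitted to all 10 arrays with limma 3.58.1 in R 4.3.3, with an intensity trend and 5 residual degrees of freedom. The mean of the 4 dried times was a further contrast. Receptor pairs were compared by enumerating all arrangements in Python 3.11.15, with scipy 1.17.1 for the adjustment. The fit was also run on simulated data with independent noise for each gene and array. That run did not copy the dim arrays and says nothing about their effect. All 30 members are accounted for by role. Array by array values are given for the import receptors, for called members and for the members with the highest and the lowest signed mean change in each role, and PEX11 and the comparison of 8 h with 1 h were added after the values were seen. Other genes are named from lists: called genes, the 3 most changed of a list with none called, and every gene of a list under 7 genes, and PXA2 was chosen among called genes after its values were seen. Alternatives covered scaling, floor, filter, probe sets, model and arrays. The members and gene lists were chosen with earlier results of these data known.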

Additional observations from a re-analysis of the deposited data

How the results depend on the processing

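The number of members called against 0 h was recomputed with other scalings, floors, filters, models and arrays. At 1 h, 2 members were called, and the count was 1 with 75th percentile scaling, 1 without the dim filter, 1 with the replicate number as a block, 8 when the fit held just the compared groups and 6 when the dimmest arrays (replicate 1 of 2 h and of 8 h) were left out. No member was called, a count of 0, without scaling, with a floor at 0.3 and without an intensity trend. Of all genes, 0.0187%, 0.919% and 0.671% were called at 1 h in these 3 settings. Calls over all genes moved too, to 9.88% and 6.48% at 1 h with just the compared groups and without the dimmest arrays, against 2.61%. At 2 h and at 4 h, 1 was called, and the count was 2 after quantile normalization and 0 without scaling or with the floor at 0.3. At 4 h it was also 2 with only the compared groups and 3 without the dimmest arrays, when 4.32% of all genes were called, against 1.45%. At 8 h, 1 was called, and the count was 0 without scaling, with the floor at 0.3, without the filter, without the trend and with only the compared groups. Of all genes, 0%, 0%, 0.477%, 0.28% and 0.895% were called at 8 h in these settings, against 0.951%. Without scaling, the share of all genes called was 0% at 2 h and at 4 h and 0.0187% for all dried arrays together. With the floor at 0.3 it was 0.177% at 2 h and 0.23% at 4 h. For all dried arrays together, 1 was called, and the count was 2 after quantile normalization, 2 with the replicate block, 4 without the dimmest arrays and 0 without scaling. Without the dimmest arrays 4.41% of all genes were called there, against 2.11%. Leaving out each array in turn gave 0 to 2 members at 1 h, 1 to 2 at 2 h and at 4 h, 0 to 1 at 8 h and 1 to 3 for all dried arrays. The floor at 0.3 lies above the filter, so all 5656 genes were then tested. PEX9 was above 0 in all 4 comparisons of a time with 0 h under every setting tried, from 1.30 at 8 h without replicate 1 of 0 h to 2.53 at 2 h without replicate 2 of 0 h. Scaling to the 75th percentile gave all genes a median of -0.11 at 1 h, against 0.04, and the members' median lay 0.58 above it under both scalings. Receptor pairs kept their direction, with PEX9 minus PEX5 between 0.90 and 1.49 and PEX9 minus PEX7 between 1.36 and 1.84. Their exact permutation test could not pass under most alternatives: its smallest possible p was 0.08 with the replicate block, 0.071 without the dimmest arrays, 0.056 without a dried array and 0.22 without a 0 h array. The floor and the mean of probe sets left the pair values as they were, so no alternative tests these pairs further. The replicate numbers are not shown to pair arrays. Deviations of same-numbered arrays correlated above 0.1 in 4 of 10 pairs of times, between -0.06 and 0.18. The causes of these shifts were not tested.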
